A study of Mus musculus with 23 samples.

Results

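Nupr1 and 9 genes of the integrated stress response were followed through sorted cells of mouse colon tumours. The 10 genes are Nupr1, Atf4, Ddit3, Ddit4, Trib3, Chac1, Sesn2, Asns, Psat1 and Phgdh, out of 54354 gene rows in the table. Nupr1 was selected on its higher level in GFP-positive cells, and the other 9 were chosen by their place in the ATF4 pathway or in serine synthesis. All 10 were present, on 11 rows, because Ddit3 has a second identifier that was at 0 counts in every library.

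The tumours grew in the colon of mice given orthotopic injections of AKP-tdT organoids that carry Basp1-eGFP-DTR, an allele that ties green fluorescent protein (GFP) and the receptor for diphtheria toxin to the Basp1 gene. GFP-positive cells (11 libraries) and GFP-negative cells (12 libraries) were separated by flow cytometry from digested primary tumours. All libraries share the genotype label Basp1-GFP and the tissue label colon. Both populations can hold host cells as well as organoid-derived cells. The allele is described for the organoids, and the shared label does not show that host cells carry it. No label gives an age, a sex or a diet, although the series title carries the letters HFD, and nothing says which libraries share an animal. The p-values therefore measure only the spread between these libraries, which may be technical.

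The library names carry numbers that fall into a pair of runs, called here lower-numbered (5 GFP-positive, 6 GFP-negative) and higher-numbered (6 GFP-positive, 6 GFP-negative). Nothing in the labels says what separates the runs. The names also begin with an identifier. As written, 9 identifiers have both populations. GFP-negative 4 and 5 carry separate identifiers that the name of GFP-positive 4 joins, and these 3 libraries were treated as the 10th identifier, a choice the labels do not settle. Total counts were 37125 to 4238877 in GFP-positive libraries (median 1418140) and 25458 to 2304316 in GFP-negative libraries (median 144334). Below 100000 counts were GFP-positive 4 and GFP-negative 4, 5 and 12. The sort could be checked on Basp1 itself, whose log2 fold change (GFP-positive minus GFP-negative) was 0.63 (SE 0.38, edgeR adjusted p = 0.997) over all libraries. The epithelial gene Epcam had a log2 fold change of 0.55 (SE 0.24, edgeR adjusted p = 0.992). The leukocyte gene Ptprc had a log2 fold change of 0.05 (SE 0.89, edgeR adjusted p = 0.997). That pooled value covers opposite directions in the runs. Ptprc averaged 54.8 CPM (highest 228 CPM) in GFP-positive and 19.5 CPM in GFP-negative lower-numbered libraries. Its means in the higher-numbered run were 14.1 and 46.7 CPM in the same order.

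Some lower-numbered libraries stood apart in markers of other cell types. In GFP-positive 3 the summed level of 14 macrophage and monocyte markers was 37096 CPM (counts scaled to a common library total), against at most 8888 CPM in any GFP-negative library. GFP-positive 1 and GFP-negative 1, which share an identifier, had 2133 and 2443 CPM of summed fibroblast markers, and the other lower-numbered libraries had at most 668 CPM. Their smooth muscle and pericyte markers summed to 283 and 294 CPM, against at most 39.3 CPM in the other libraries of the run, and their endothelial markers to 226 and 245 CPM, against at most 88.1 CPM. The log2 fold changes of members in the lower-numbered libraries are therefore also given without GFP-positive 3 and without that pair, where leaving out the pair was chosen after seeing the data.

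The integrated stress response begins when kinases that sense amino acid shortage, unfolded proteins, viral RNA or haem shortage phosphorylate the translation factor eIF2α. General translation then falls while the transcription factor ATF4 is made more efficiently. ATF4 switches on genes for amino acid synthesis and transport, and also CHOP (the product of Ddit3), TRIB3 and NUPR1, a small nuclear protein made under stress.

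ATF4 with a C/EBP partner binds a composite element that reads TGATGNAA. The element was searched on both strands in RefSeq promoter windows of GRCm38.p6 (mm10), each 250 bases before to 50 bases after a gene's start, and no other motif was searched. All 10 genes had a window, and 4 held the motif (Nupr1, Chac1, Trib3 and Asns). Of all 32851 promoter windows, 1304 (3.97%) held it. A match describes letters in a window and is neither a measured binding site nor a cause. The 4 matches are shown 5′ to 3′ on the gene's own strand because the members' levels below differ widely although these windows share the element, which is in capitals.

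Nupr1 (chr7:126625562-126625591, minus strand, 110 bases before the start, read on the opposite strand): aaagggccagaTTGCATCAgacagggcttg
Chac1 (chr2:119351038-119351067, plus strand, 193 bases before the start, read on the opposite strand): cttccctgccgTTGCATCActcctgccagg
Trib3 (chr2:152344028-152344057, minus strand, 15 bases after the start, read on the opposite strand): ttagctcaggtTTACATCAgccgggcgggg
Asns (chr6:7693214-7693243, minus strand, 23 bases before the start, read on the gene's strand): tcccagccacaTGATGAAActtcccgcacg

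For Nupr1, the most abundant of the 10, the 250 bases before the RefSeq start are given whole. They lie at chr7:126625471-126625720 on the minus strand, within the GENCODE gene on chromosome 7 from 126623249 to 126630861, which includes a transcript that starts further upstream.
Nupr1 promoter: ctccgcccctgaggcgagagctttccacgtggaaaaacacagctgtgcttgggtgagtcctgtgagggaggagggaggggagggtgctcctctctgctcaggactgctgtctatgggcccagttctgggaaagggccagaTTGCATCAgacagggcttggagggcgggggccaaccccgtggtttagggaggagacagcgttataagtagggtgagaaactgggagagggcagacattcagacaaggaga

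Nupr1 was among the most abundant transcripts of these cells in both populations. By CPM it ranked between 7 and 116 among all genes (median rank 37 over the 23 libraries) and took 0.111% to 0.635% of a library's counts. On a length-scaled level (counts per kilobase of exon, rescaled to a common total per library) it stood above every other member in 23 of 23 libraries. Its lowest length-scaled level was 872, and the highest of any Atf4 value was 243.

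Below Nupr1 the order of median length-scaled levels was Atf4 (97.9), Phgdh (68.9), Ddit3 (66.1), Asns (56.9), Ddit4 (34.6), Psat1 (18.0), Trib3 (3.93), Chac1 (1.57) and Sesn2 (0.995). Each of these neighbours overlapped the next in range. Atf4 was above Phgdh in 16 of 23 libraries, and Phgdh was above Ddit3 in 10 of 23. Asns was above Ddit4, and Psat1 above Trib3, in 20 of 23. The bottom of the order rests on few reads, since Sesn2 had 74 counts summed over the GFP-positive libraries and 23 over the GFP-negative ones.

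**Figure D1:**
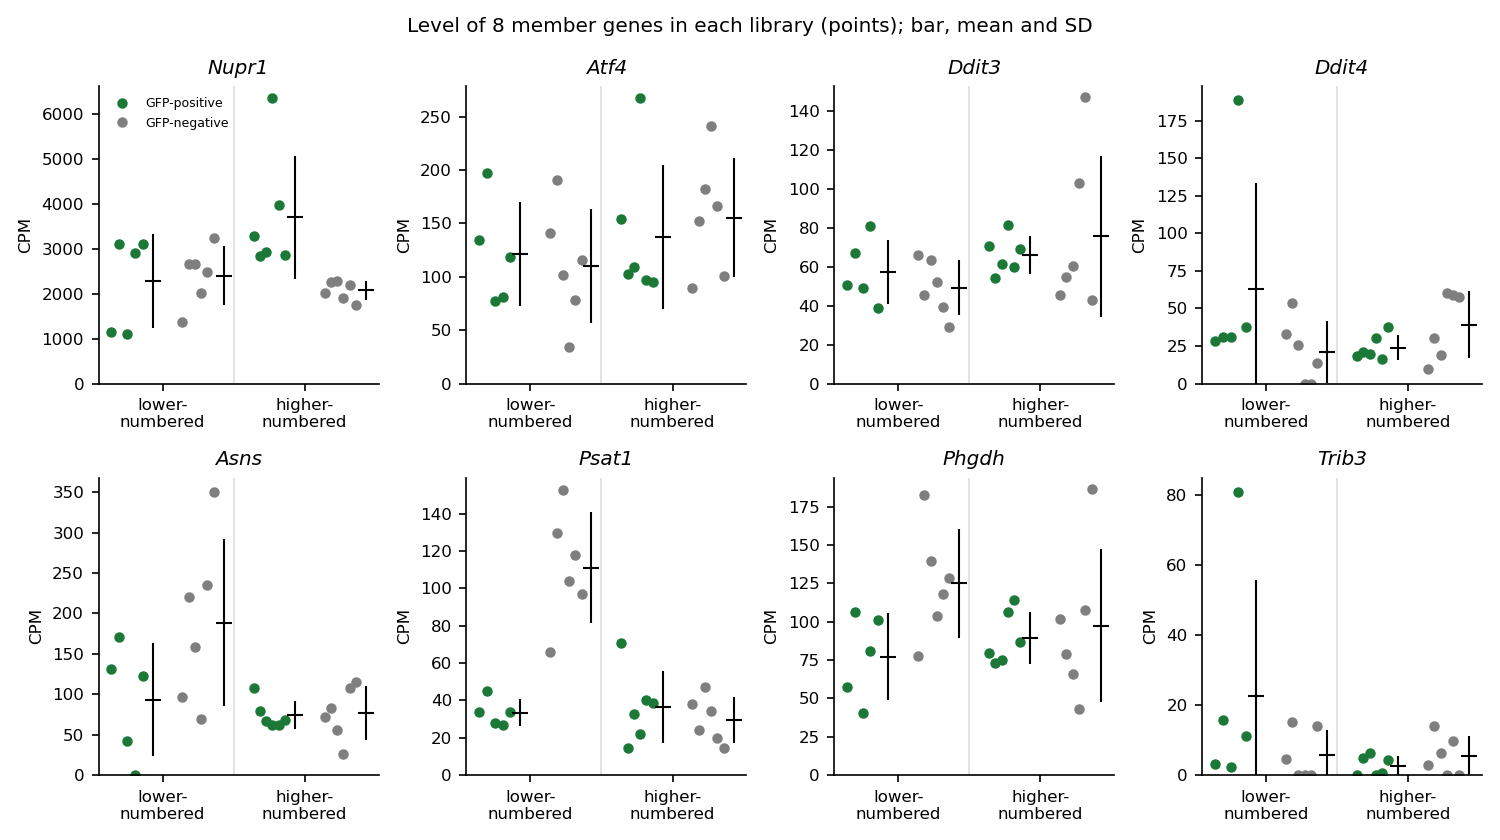
CPM of 8 member genes in each library (linear axis), by library run, with GFP-positive points (green) left of GFP-negative points (grey); black bars are the mean and SD (the SD is drawn down to 0 at most). The 6 higher-numbered GFP-positive libraries lie between 2834 and 6351 CPM for Nupr1, above all 6 GFP-negative libraries, and the 5 lower-numbered GFP-positive libraries lie below all 6 GFP-negative ones for Psat1. The share of all genes that separate in this way was not counted, and Nupr1 was selected for its rise.

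Nupr1 was selected for being higher in GFP-positive cells, so all its differences between the populations are descriptions without a test. In the higher-numbered libraries GFP-positive libraries 6 to 11 had 3278, 2834, 2921, 6351, 3967 and 2852 CPM, against 2017, 2255, 2285, 1910, 2186 and 1753 CPM in GFP-negative libraries 7 to 12. The groups did not overlap, which the selection of Nupr1 favours, and the share of all tested genes without overlap was not counted. The mean was 3700.4 ± 1368 CPM in GFP-positive and 2068 ± 211 CPM in GFP-negative libraries (SD, n = 6 each), and the fitted log2 fold change was 0.86 (SE 0.20). Of 6952 genes tested in these libraries, 3 (0.0432%) were called higher in GFP-positive cells by edgeR's quasi-likelihood test (adjusted p under 0.05) and 86 (1.24%) lower.

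The size of the Nupr1 difference varied with the scaling. Scaled to the summed epithelial markers in place of edgeR's trimmed mean of M values (TMM), the log2 fold change of Nupr1 in the higher-numbered libraries was 0.48. That scaling lowered the median of all tested genes by 0.38 on the log2 scale. When each library was left out in turn the log2 fold change ran between 0.67 and 0.96.

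The Nupr1 levels of the lower-numbered run overlapped. GFP-positive libraries 1 to 5 had 1146, 3091, 1108, 2909 and 3100 CPM, and GFP-negative libraries 1 to 6 had 1358, 2666, 2656, 2009, 2475 and 3240 CPM. The GFP-positive libraries fell into a low pair (1 and 3) and 3 libraries between 2909 and 3100 CPM. GFP-negative 1, at 1358 CPM, was also low. These 3 are the libraries that stood apart in markers of other cell types, and the part of those markers in the Nupr1 values was not tested. The log2 fold change was -0.14 (SE 0.27). It was 0.026 without GFP-positive 3, 0.058 without GFP-positive 1, and -0.047 without GFP-positive 1 and GFP-negative 1.

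Over all 23 libraries Nupr1 averaged 3051 ± 1390 CPM in GFP-positive (n = 11) and 2234 ± 490 CPM in GFP-negative libraries (SD, n = 12). The fitted log2 fold change was 0.46 (SE 0.20). The interaction of GFP with library run, fitted for Nupr1, was 0.97 (SE 0.34, log2 scale, higher-numbered minus lower-numbered).

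Within identifiers, Nupr1 was higher in GFP-positive cells in 8 of 10, a description, since identifiers were not taken as pairing. In identifier 61-1 the GFP-positive level averages libraries of both runs (3091 and 2834 CPM). It is set against a single higher-numbered GFP-negative library (2255 CPM). The joined identifier of GFP-positive 4 and GFP-negative 4 and 5 is among the 8, with a difference in log2(CPM + 1) of 0.38. The largest difference was in 7907, with 6351 CPM in GFP-positive and 1910 CPM in GFP-negative cells. There were 2 exceptions. The identifier of GFP-positive 3 and GFP-negative 6 had 1108 CPM in GFP-positive and 3240 CPM in GFP-negative cells. That of GFP-positive 1 and GFP-negative 1 had 1146 CPM in GFP-positive and 1358 CPM in GFP-negative cells. The mean difference in log2(CPM + 1) over the 10 identifiers was 0.35 ± 0.84 (SD), and it was 0.31 ± 0.95 over the 8 in which every library had at least 100000 counts.

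**Figure D2:**
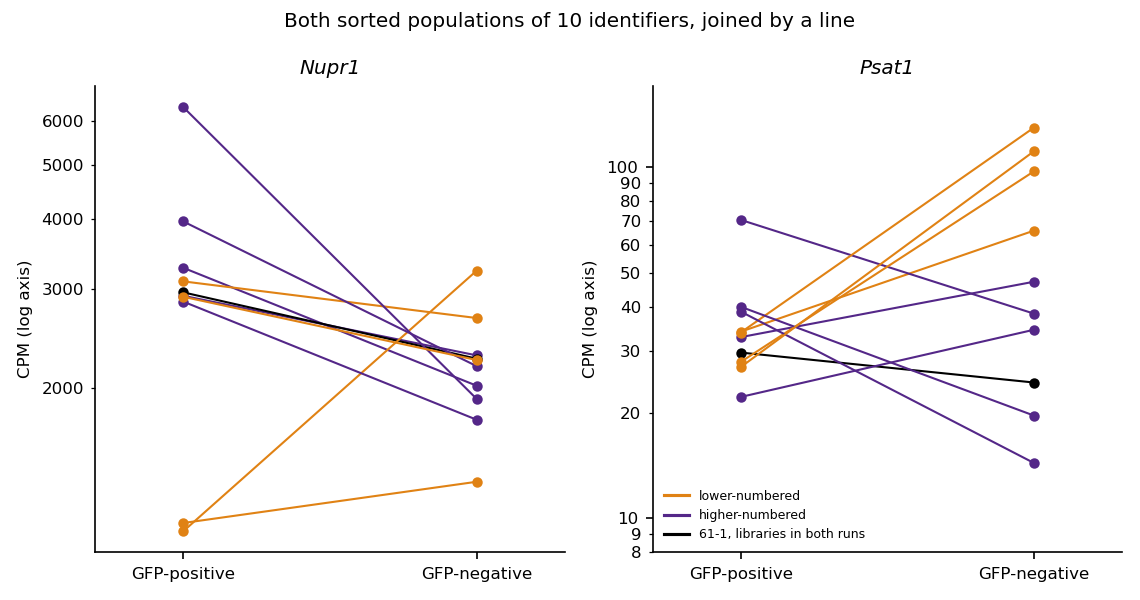
CPM (log axis) of Nupr1 and Psat1 in GFP-positive (left) and GFP-negative (right) cells, each line joining both populations of an identifier, with colours for the library run. Nupr1 is higher in GFP-positive cells in 8 of 10 identifiers, and Psat1 is lower in GFP-positive cells in all 4 lower-numbered identifiers (orange). Identifier 61-1 (black) has libraries in both runs, and identifiers were not taken as pairing.

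The genes most like Nupr1 from library to library were not members of the stress pathway. Among 3498 genes whose log2 CPM averaged at least 5, the highest Pearson correlations with Nupr1 over 23 libraries, after each group's mean was subtracted, were those of Pglyrp1 (r = 0.82), Gstm5 (0.71), Rps16 (0.69), Grcc10 (0.65) and Rps3 (0.65). Pglyrp1 encodes an antibacterial peptidoglycan recognition protein, Gstm5 a glutathione transferase, and Rps16 and Rps3 are ribosomal proteins. Among the members, Phgdh was closest (r = 0.55, place 27), followed by Atf4 (r = 0.21), Psat1 (0.16), Asns (0.13) and Ddit3 (0.06). All these points share libraries of very unequal depth. Over the 19 libraries of at least 100000 counts r was 0.86 for Pglyrp1, 0.65 for Phgdh and 0.31 for Atf4.

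For the transcription factors of the pathway no difference between the populations passed the test. Of the members, 7 of 10 passed the filter on low counts in each fit, so 6 besides Nupr1 were tested, and edgeR called none of the 6. Over all genes edgeR called 1 of 6621 (0.0151%) in all libraries, none of 5256 (0%) in the lower-numbered libraries and 89 of 6952 (1.28%) in the higher-numbered libraries. At an unadjusted p under 0.05 the 6 gave 1 gene in all libraries (Psat1), the same gene in the lower-numbered libraries and 0 in the higher-numbered ones. Of all tested genes, 4.95%, 5.4% and 6.88% reached it in the same order of fits. DESeq2 made a single call among them, Psat1 in the lower-numbered libraries, while calling 0.612% of all genes in all libraries, 0.211% in the lower-numbered and 2.5% in the higher-numbered ones.

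Atf4, the central activator, had 134, 197, 77.0, 80.8 and 119 CPM in lower-numbered GFP-positive libraries, and 34.6 to 190 CPM (median 109) in the 6 GFP-negative ones. In the higher-numbered libraries it had 95.2 to 267 CPM (median 106) in GFP-positive and 89.2 to 241 CPM (median 159) in GFP-negative cells. The ranges overlapped in both runs. The log2 fold change over all libraries was -0.04 (SE 0.24, edgeR adjusted p = 0.997), with a 95% interval of -0.54 to 0.46. Its lower-numbered value was 0.09 (SE 0.35, edgeR adjusted p = 0.982), against 0.21 both without GFP-positive 3 and without GFP-positive 1 and GFP-negative 1. GFP-positive 9, which had the highest Nupr1, also had the highest Atf4, 267 CPM. GFP-negative 10, of the same identifier, had the highest GFP-negative Atf4, 241 CPM, with Nupr1 at 1910 CPM. Over the 23 libraries the group-centred correlation of Atf4 with Nupr1 was 0.21.

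Ddit3 encodes CHOP, a transcription factor of prolonged stress. It had 38.8 to 80.8 CPM (median 50.7) in lower-numbered GFP-positive and 29.1 to 65.9 CPM (median 48.8) in GFP-negative libraries. In the higher-numbered libraries it had 54.2 to 81.6 CPM (median 65.2) in GFP-positive and 43.1 to 147 CPM (median 57.5) in GFP-negative cells. Its log2 fold change over all libraries was 0.0038 (SE 0.26, edgeR adjusted p = 0.999), and its sign changed with the scaling and the libraries used. Its lower-numbered value was 0.11 (SE 0.41, edgeR adjusted p = 0.980), and 0.10 without GFP-positive 3. Without GFP-positive 1 and GFP-negative 1, Ddit3 did not pass the filter. Ddit3 overlaps Mars on the opposite strand (292 counts in all). The kit marks strand, but how strand was used in counting is not given in the sources used here.

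Among the members that restrain the response or growth signalling, Ddit4 alone passed the filter. Ddit4 encodes REDD1, an inhibitor of mTORC1, the kinase complex that promotes growth. In the lower-numbered libraries it had 28.1, 30.7, 30.7, 189 and 37.5 CPM in GFP-positive cells, and 33.0, 53.3, 25.4, 0, 0 and 13.5 CPM in GFP-negative cells. The value of 189 CPM, in GFP-positive 4, stood for 7 counts, and the pair of zeros came from GFP-negative 4 and 5, in which 3 counts would be 52.0 and 118 CPM. The log2 fold change was 0.75 (SE 0.59, edgeR adjusted p = 0.933) in the lower-numbered libraries and -0.45 (SE 0.50, edgeR adjusted p = 0.928) in the higher-numbered ones. The lower-numbered value was 0.42 without GFP-positive 4, and Ddit4 did not pass the filter without GFP-positive 3 or without GFP-positive 1 and GFP-negative 1. Over all libraries it was 0.12 (SE 0.39, edgeR adjusted p = 0.997).

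Trib3, a pseudokinase that dampens ATF4 and AKT signalling, had at least 1 count in 9 of 11 GFP-positive and 7 of 12 GFP-negative libraries. Pooled over libraries it made up 5.79 CPM (109 counts) in GFP-positive and 9.54 CPM (58 counts) in GFP-negative cells. Chac1, an enzyme that degrades glutathione, had counts in 8 of 11 GFP-positive libraries (47 counts) and 7 of 12 GFP-negative libraries (31 counts). Sesn2, a leucine sensor that restrains mTORC1, had counts in 9 of 11 GFP-positive libraries (74 counts) and 4 of 12 GFP-negative libraries (23 counts). The shares are not matched for depth, which had a median of 1418140 counts in GFP-positive and 144334 counts in GFP-negative libraries. With no filter on low counts, edgeR gave log2 fold changes over all libraries of -0.07 (SE 0.62, adjusted p = 0.991) for Trib3, -1.11 (SE 0.79, adjusted p = 0.612) for Chac1 and 0.13 (SE 0.74, adjusted p = 0.976) for Sesn2. The same fit of the lower-numbered libraries gave 0.63 (SE 0.87), -1.38 (SE 1.38) and 1.33 (SE 1.17) in the same order of genes. That of the higher-numbered ones gave -0.96 (SE 0.99), -0.96 (SE 0.96) and -0.34 (SE 1.00), and none was called. Differences in these 3 genes were not detectable with counts this low.

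The largest difference among the enzymes was in Psat1, which encodes phosphoserine aminotransferase, the second step of serine synthesis. In the lower-numbered libraries Psat1 had 33.97, 44.9, 27.9, 26.9 and 33.8 CPM in GFP-positive cells, and 65.9, 129, 153, 104, 118 and 97.2 CPM in GFP-negative cells. Every GFP-positive library was below every GFP-negative one. How many of all tested genes separate in this way was not counted. The mean was 33.5 ± 7.17 CPM in GFP-positive (n = 5) and 111 ± 29.6 CPM in GFP-negative libraries (SD, n = 6). The fitted log2 fold change was -1.65 (SE 0.38, 95% interval -2.50 to -0.80).

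That difference did not pass edgeR's adjustment (unadjusted p = 0.000207, place 4 of 5256 genes, adjusted p = 0.243), whereas DESeq2 called it (adjusted p = 0.00833), among 11 calls in 5220 genes (0.211%). Leaving out each of the 11 libraries in turn gave log2 fold changes of -1.78 to -1.51 and edgeR adjusted p-values of 0.0986 to 0.798. Without the macrophage-rich GFP-positive 3 the log2 fold change was -1.59, and without GFP-positive 1 and GFP-negative 1 it was -1.71. Several GFP-negative values rest on few reads, with 6 counts in GFP-negative 4 and 3 in GFP-negative 5, but the deepest, GFP-negative 6, had 224 counts and 97.2 CPM.

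The levels of Psat1 overlapped in the higher-numbered libraries. Psat1 had 70.7, 14.4, 32.8, 22.2, 40.0 and 38.8 CPM in GFP-positive cells, and 38.2, 24.4, 47.1, 34.4, 19.6 and 14.4 CPM in GFP-negative cells. The highest value and the lowest were both GFP-positive, and the log2 fold change was 0.15 (SE 0.46, edgeR adjusted p = 0.976). The GFP-positive values had similar medians in both runs (33.8 CPM in the lower-numbered and 35.8 CPM in the higher-numbered run). They spread more widely in the higher-numbered run, 14.4 to 70.7 CPM against 26.9 to 44.9 CPM. The GFP-negative values were 65.9 to 153 CPM (median 111) in the lower-numbered and 14.4 to 47.1 CPM (median 29.4) in the higher-numbered run. The interaction of GFP with library run was 1.76 (SE 0.58, unadjusted p = 0.00401, edgeR adjusted p = 0.521), so a difference between the runs did not pass the adjustment, and edgeR called 0 of 6621 genes for the interaction (424 at an unadjusted p under 0.05).

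Phgdh, the first enzyme of serine synthesis, had 57.3, 106, 40.6, 80.8 and 101 CPM in lower-numbered GFP-positive libraries, and 77.7, 183, 140, 104, 118 and 129 CPM in GFP-negative ones. The groups overlapped, with 4 GFP-negative libraries above the highest GFP-positive one. The log2 fold change was -0.74 (SE 0.36, edgeR adjusted p = 0.894) there and -0.02 (SE 0.33, edgeR adjusted p = 0.998) in the higher-numbered libraries. The lower-numbered value was -0.56 without GFP-positive 3 and -0.72 without GFP-positive 1 and GFP-negative 1.

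Asns, which makes asparagine, had 131, 171, 42.5, 0 and 123 CPM in lower-numbered GFP-positive libraries. In GFP-negative libraries of the same run it had 96.5, 221, 159, 69.3, 236 and 351 CPM. The 0 belongs to GFP-positive 4, in which 3 counts would be 80.8 CPM. The log2 fold change was -0.88 (SE 0.45, edgeR adjusted p = 0.896) in the lower-numbered and 0.02 (SE 0.35, edgeR adjusted p = 0.998) in the higher-numbered libraries, where the levels were 61.8 to 108 CPM in GFP-positive and 25.8 to 115 CPM in GFP-negative cells. The lower-numbered value was -0.66 without GFP-positive 3 and -1.08 without GFP-positive 1 and GFP-negative 1. It ran between -1.16 and -0.51 when each library was left out, and the smallest was without GFP-negative 6, which had the highest level (351 CPM). Asns and both serine enzymes had negative fold changes in the lower-numbered libraries, none past the edgeR threshold.

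**Figure D3:**
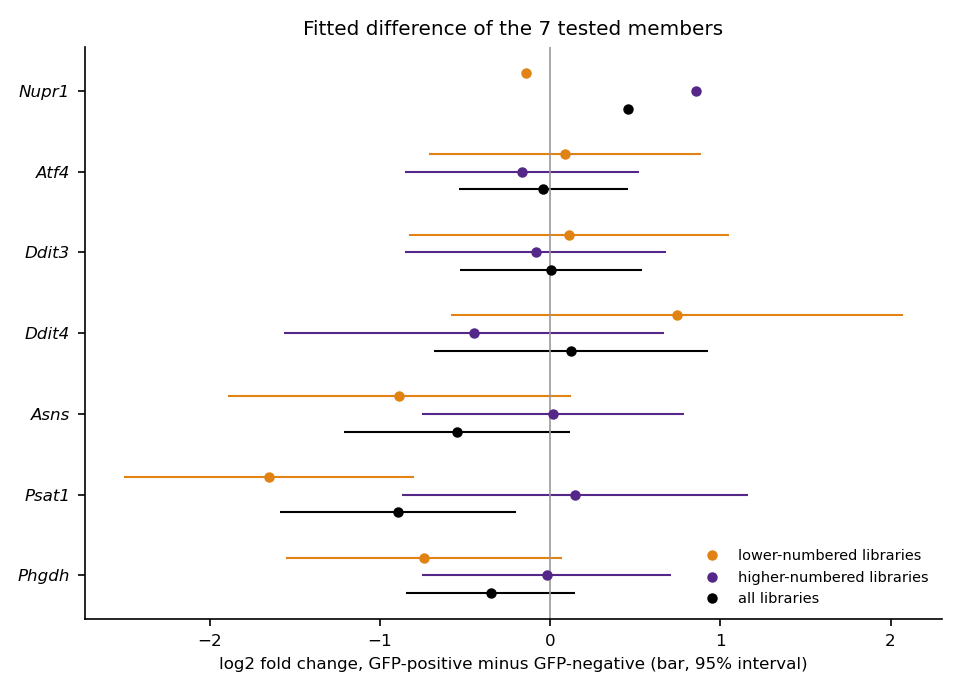
Fitted log2 fold change (GFP-positive minus GFP-negative) of the 7 members that passed the filter, in the lower-numbered (orange), higher-numbered (purple) and all libraries (black); bars are 95% intervals, left out for Nupr1, which the contrast chose. The lower-numbered Psat1 interval (-2.50 to -0.80) lies below 0, and those of Atf4, Ddit3, Ddit4, Asns and Phgdh include 0 in each fit.

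The wider pathway was read from 7 further gene lists, and edgeR called no gene of them in any of the 3 fits of GFP-positive against GFP-negative cells. At an unadjusted p under 0.05 there were 4 of 52 tested genes in the lower-numbered, 2 of 60 in the higher-numbered and 2 of 60 in all libraries, while 5.4%, 6.88% and 4.95% of all tested genes reached it in the same order. The same count of 0 held under DESeq2 and under the scaling, filter, depth and block alternatives. No gene of the 7 lists was called in the lower-numbered libraries without GFP-positive 3 either, or without GFP-positive 1 and GFP-negative 1. Each list's median log2 fold change is set beside the median of all tested genes, 0.05 in the lower-numbered and 0.07 in the higher-numbered libraries.

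The serine, proline and one-carbon enzymes other than Psat1 and Phgdh were negative in 4 of 4 tested genes in the lower-numbered libraries, with a median of -0.70. Only 2 genes of the list passed the filter without GFP-positive 3 (both negative, median -1.29) and none without GFP-positive 1 and GFP-negative 1. In the higher-numbered libraries 4 of 5 were negative, with a median of -0.10. Mthfd2, a mitochondrial folate enzyme, was at -1.24 in the lower-numbered and -0.19 in the higher-numbered libraries. Shmt2, which splits serine to glycine in mitochondria, was at -0.05 and -0.21 in the same order.

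The aminoacyl-tRNA synthetases, which charge tRNAs with amino acids, had a median of -0.32 in the lower-numbered (7 of 11 negative) and 0.30 in the higher-numbered libraries (9 of 11 positive). Nars was at -0.22 and 0.26, and Eprs at 0.32 and 0.02, in the same order of runs. The eIF2α kinases, phosphatases and eIF2 factors had a median of -0.36 in the lower-numbered (8 of 11 negative) and 0.17 in the higher-numbered libraries (11 of 14 positive). Their most abundant genes were the eIF2 subunits Eif2s2 (-0.37 and 0.36) and Eif2s1 (-0.36 and 0.50).

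The amino acid transporters had a median of 0.29 in the lower-numbered (5 of 5 positive) and -0.26 in the higher-numbered libraries (5 of 6 negative). Slc38a2 was at 0.29 and -0.36, and Slc3a2, the heavy chain shared by several transporters, at 0.15 and -0.15. The XBP1 and ATF6 arms of the unfolded protein response, which raise chaperones, had a median of 0.17 in the lower-numbered (9 of 10 positive) and -0.20 in the higher-numbered libraries (9 of 10 negative). The chaperone Hspa5 was at 0.21 and -0.14, and Hsp90b1 at 0.07 and -0.37.

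Other ATF4 and CHOP targets had medians of 0.04 in the lower-numbered (5 of 9 positive) and -0.06 in the higher-numbered libraries (8 of 10 negative). Atf3, a stress-induced repressor, was at 0.75 and -0.05, and Pck2 at -0.39 and -0.03. Few of the mTORC1 regulators were tested, 2 in the lower-numbered and 4 in the higher-numbered libraries of 17 listed, with medians of 0.07 and -0.20. Without GFP-positive 3, the medians of the lower-numbered run kept their sign for 6 of these 7 lists, and that of the other ATF4 and CHOP targets was -0.0099. The median was then 0.19 for the transporters (4 of 5 positive) and 0.10 for the unfolded protein response (5 of 6 positive). Rheb, the activator of mTORC1, was at 0.26 and 0.07, and Seh1l at -0.12 and -0.18.

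**Figure D4:**
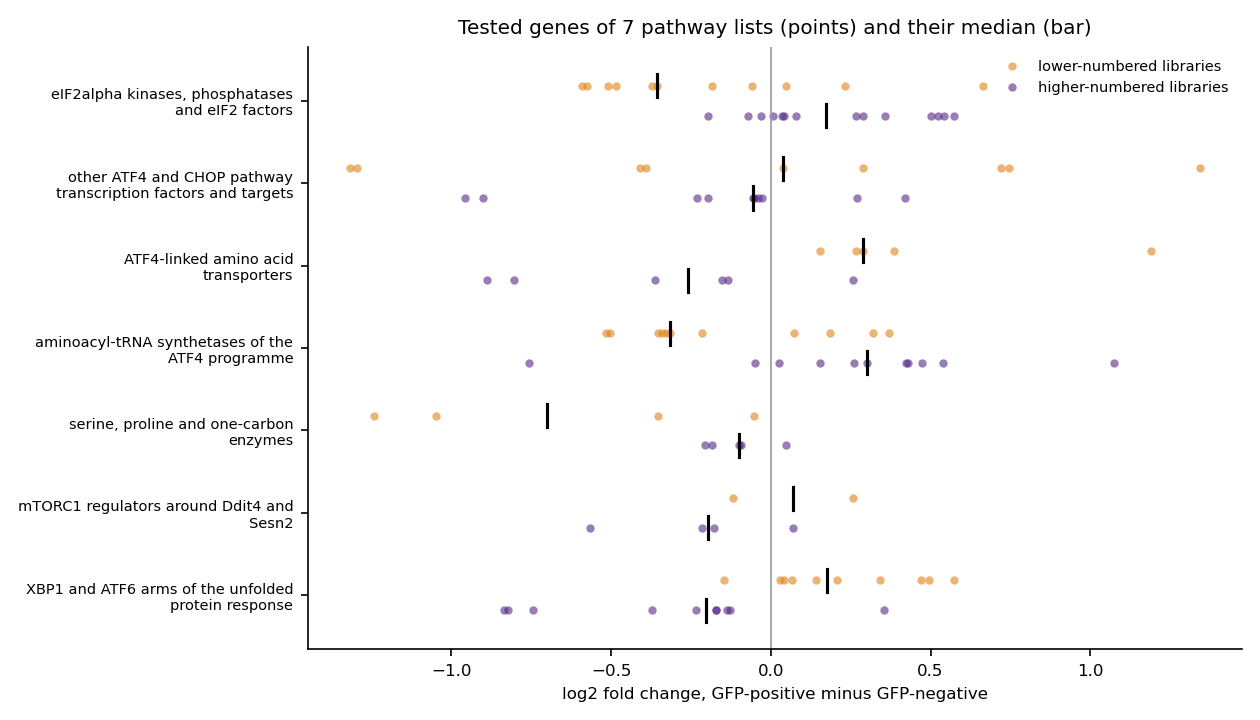
Log2 fold change (GFP-positive minus GFP-negative) of each tested gene of 7 pathway lists in the lower-numbered (orange) and higher-numbered (purple) libraries, with the list's median as a black bar. Serine, proline and one-carbon enzymes are all negative in the lower-numbered libraries (median -0.70), and no gene shown passed the edgeR threshold.

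Markers of other cell types differed between the populations in the higher-numbered libraries. In this run edgeR called 9 of 10 tested macrophage markers lower in GFP-positive cells, against 1.24% of all genes. Their summed level was 194 to 1119 CPM in GFP-positive and 2853 to 7571 CPM in GFP-negative libraries, without overlap. Apoe, C1qa and C1qb had log2 fold changes of -4.12 (SE 0.34), -4.57 (SE 0.46) and -3.85 (SE 0.52). Of 8 tested fibroblast markers, 4 were called lower (172 to 991 CPM summed in GFP-positive and 1150 to 8896 CPM in GFP-negative libraries), with Col1a2 at -3.71 (SE 0.58), Lum at -3.00 (SE 0.47), Fbln1 at -3.73 (SE 0.57) and Col1a1 at -3.90 (SE 0.64). The epithelial markers summed to 4013 to 10997 CPM in GFP-positive and 3149 to 6452 CPM in GFP-negative cells, and 14 of 14 had positive fold changes with none called by edgeR (4 at an unadjusted p under 0.05, reached by 6.88% of all tested genes). Smooth muscle and pericyte markers summed to 17.5 to 157 CPM in GFP-positive and 176 to 667 CPM in GFP-negative libraries of this run, without overlap, and the 3 tested had log2 fold changes of -2.44 to -1.76, all at an unadjusted p under 0.05 and none called. Endothelial markers of this run summed to 41.5 to 131 CPM in GFP-positive and 86.2 to 430 CPM in GFP-negative libraries. The 3 tested had negative fold changes, 2 of them at an unadjusted p under 0.05 by edgeR and none called. The part of these markers in the higher Nupr1 level of the same libraries was not tested, and in bulk RNA fewer cells of a type and less RNA per cell cannot be told apart.

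In the lower-numbered libraries, where the Psat1 levels did not overlap, edgeR called no marker. Macrophage markers summed to 286 to 37096 CPM in GFP-positive (median 458) and 512 to 8888 CPM in GFP-negative libraries (median 1250), and all 10 tested had positive fold changes (median 1.57). Without GFP-positive 3, all 9 tested were negative (median -2.002) and none was called. The interaction of GFP with run called no macrophage marker either (smallest edgeR adjusted p = 0.469). Lyz2, a macrophage lysozyme, was at 15123 CPM in GFP-positive 3 and had a log2 fold change of 2.27 (SE 1.51, edgeR adjusted p = 0.933) there, against -3.66 (SE 0.62, edgeR adjusted p = 0.0156) in the higher-numbered libraries. Fibroblast markers summed to 0 to 2133 CPM in GFP-positive and 150 to 2443 CPM in GFP-negative cells, and epithelial markers to 4432 to 7934 CPM and 4053 to 8408 CPM in the same order. No macrophage, fibroblast or epithelial marker was at 0 in all libraries of either population.

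Genes induced by tissue dissociation summed to 4120 to 8061 CPM in lower-numbered GFP-positive and 1317 to 5397 CPM in GFP-negative libraries. In the higher-numbered run they summed to 3008 to 6832 CPM in GFP-positive and 4211 to 7684 CPM in GFP-negative libraries. Their log2 fold changes were positive for 15 of 15 in the lower-numbered libraries (median 0.63) and for 4 of 15 in the higher-numbered ones (median -0.28). EdgeR called none, and an unadjusted p under 0.05 was reached by 4 in the lower-numbered and 2 in the higher-numbered libraries, against 5.4% and 6.88% of all tested genes. Without GFP-positive 3, 13 of 14 were positive in the lower-numbered libraries (median 0.60), and without GFP-positive 1 and GFP-negative 1, 13 of 13 were (median 0.90). The part of these genes in the members' values was not tested.

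The remaining lists held few tested genes. Neutrophil markers summed to 135 to 603 CPM in GFP-positive and 118 to 771 CPM in GFP-negative libraries. Their most abundant genes were Ly6g (mean 206 CPM over all libraries) and S100a9 (52.3 CPM). Endothelial markers summed to 40.1 to 226 CPM in GFP-positive and 15.2 to 430 CPM in GFP-negative libraries. Erythrocyte markers reached 562 CPM in GFP-positive and 464 CPM in GFP-negative libraries. T, NK and B cell markers reached 768 CPM in GFP-positive and 465 CPM in GFP-negative libraries, while Cd3e, Cd3g, Cd8a, Nkg7, Cd79a and Ms4a1 were at 0 in every library. That sum was nearly all Trbc1 (mean 242 CPM over all libraries), and the next gene, Trbc2, averaged 0.88 CPM. EdgeR called no gene of these 4 lists in either run.

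**Figure D5:**
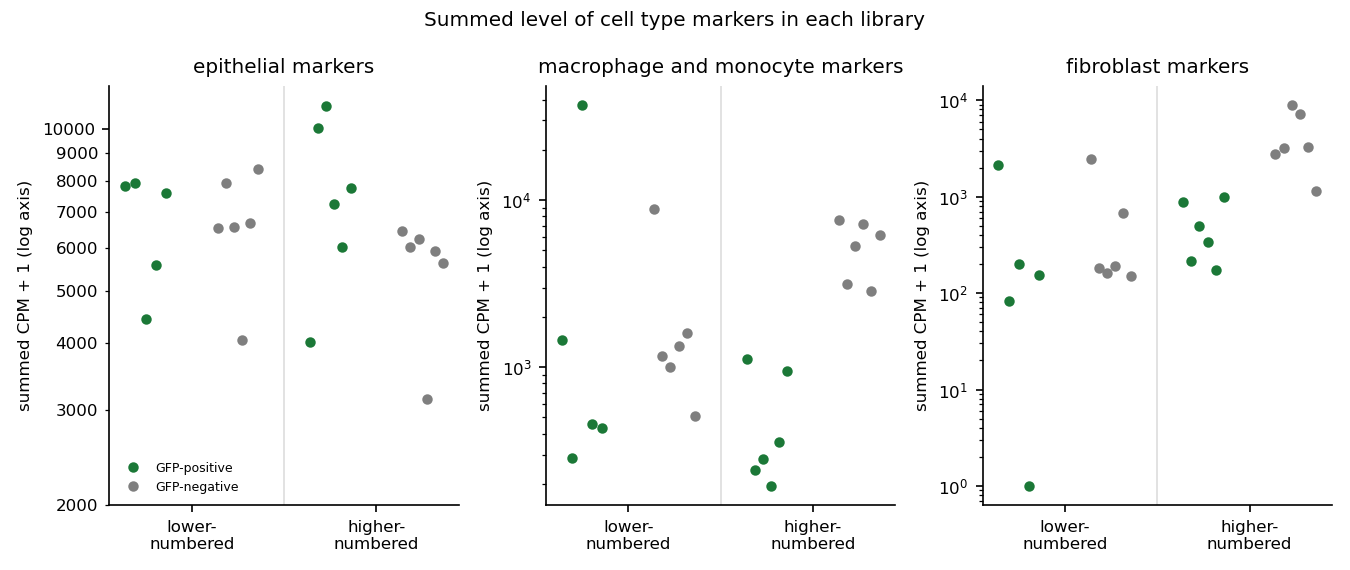
Summed CPM + 1 (log axis) of 14 epithelial, 14 macrophage and 11 fibroblast markers in each library, with GFP-positive points (green) left of GFP-negative points (grey) in each run. Macrophage sums do not overlap in the higher-numbered run, and a single lower-numbered GFP-positive library reaches 37096 CPM.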

How the data were processed

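RNA was poly(A)-selected and made into libraries with the NEBNext Ultra II Directional kit after TRIzol and PureLink purification, per the labels' protocols, which name organoids as the source where the design text names digested tumours. The authors deposited expected counts (whole-number estimates of reads per gene) for 23 libraries, made with Salmon 1.3.0 on mm10, per the submitters' processing notes. The annotation was not given in the sources used here. By its model, Salmon shares reads between similar transcripts. Gene symbols and positions came from the table and GENCODE M21, which held 94.7% of its identifiers.

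CPM are counts scaled to a common library total. GFP-positive and GFP-negative libraries were compared over all libraries and within each library run with edgeR 4.0.16 (TMM, filterByExpr, robust quasi-likelihood test, Benjamini-Hochberg over all tested genes, threshold 0.05), and the interaction of GFP with run was fitted. A permutation test of Nupr1 in the lower-numbered libraries is not reported, because the choice of Nupr1 covers all libraries. On simulated data with 4-fold changes, 99.4% of changed genes that passed the filter were called in all libraries, with 10 false calls. In the lower-numbered libraries it was 89.4% with 1 false call, and in the higher-numbered ones 87.8% with 6. The simulated libraries shared a pooled profile without marker-rich libraries, so these shares do not apply to smaller changes or to such libraries. The 10 genes, the 16 other lists and the tests were chosen with earlier results of these data known. Text names the 10 genes, the 5 genes most correlated with Nupr1, up to 3 called genes per list or else its 2 most abundant, and Basp1, Epcam, Ptprc, Col1a1 and Lyz2 as checks of the sort.

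Alternatives were size factors by relative log expression (RLE), scaling to epithelial markers, no filter, DESeq2 1.42.0, library run as covariate, blocks by identifier or title number, a pseudocount of 10 in place of 1, leaving out shallow libraries (under 100000 counts), leaving out each library and, added after seeing the data, both lower-numbered libraries of a marker-rich identifier. Same-numbered libraries did not all deviate together (r = -0.22 to 0.40 by identifier and -0.17 to 0.40 by title number). Every r over 0.1 was required, so neither was taken as pairing. A low r does not show that libraries with the same identifier have separate sources. GFP-positive 2 and 7, both of identifier 61-1, entered the main fit over all libraries as separate libraries. No pair of libraries was within sampling noise of the other. Statements that a count of 3 would be a given CPM cover counting error only.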

Additional observations from a re-analysis of the deposited data

Results flagged for a closer look

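In each group of 5 or 6 libraries of a run, the highest and lowest CPM of the 10 genes were compared with the rest by Dixon's gap. Chance passes that gap in about 1 of 20 groups of normally distributed values. CPM from few counts are not distributed so, and the rate does not apply to them. Of 40 groups of values, 5 passed, a count that is not set against that rate. In GFP-positive 9, Nupr1 was at 6351 CPM (5447 counts), and the next of the 6 libraries was at 3967 CPM. In the same library Atf4 was at 267 CPM (229 counts), with the next at 154 CPM. In GFP-positive 4, a library of 37125 counts, Ddit4 was at 189 CPM from 7 counts, with the next of 5 libraries at 37.5 CPM. In that library Trib3 was at 80.8 CPM from 3 counts, with the next at 15.7 CPM. In GFP-negative 2, Sesn2 was at 7.62 CPM from 1 count, with the next of 6 libraries at 1.74 CPM.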

How the results depend on the processing

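Of 483 recomputed fold changes of the 7 members that passed the filter, 413 carried a test and 1 passed. The call was Psat1 in the lower-numbered libraries by DESeq2 (adjusted p = 0.00833). Of genes other than Nupr1, 58 fold changes reversed, with reversed values of at most 0.36 in size, and Nupr1 changed sign in the lower-numbered libraries without GFP-positive 1 or 3; the cause was not tested. Genes called over all libraries numbered 1, against 61 by DESeq2, 2 with a replicate block by identifier, 0 with a replicate block by title number and 0 to 16 when each library was left out (16 without GFP-positive 3). In the lower-numbered libraries they numbered 0, against 11 by DESeq2 and 0 to 6 by leaving out (6 without GFP-negative 6), and 0 without GFP-positive 1 and GFP-negative 1, a setting chosen after seeing the data. In the higher-numbered libraries they numbered 89, against 375 with no filter, 288 by DESeq2, 140 with the identifier block and 178 with that block and no shallow libraries, a setting chosen after seeing the data. Leaving out each library gave 65 to 118. The interaction gave 0, against 1 with no filter and 0 to 6 by leaving out. The blocks changed no call among the members with a test.

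Reversed log2 fold changes over all libraries were, for Ddit3, -0.085 (RLE), -0.046 (no shallow libraries), -0.040 (DESeq2), -0.26 (epithelial scaling) and -0.016 (identifier block, no shallow libraries). For Ddit4 they were -0.081, -0.073 and -0.14 (no shallow libraries, epithelial scaling, block without shallow libraries), and for Atf4 0.076 (no filter). In the lower-numbered libraries Atf4 was at -0.29 and -0.36 with the identifier block, without and with removal of shallow libraries. In the higher-numbered libraries Asns was at -0.040 (RLE), -0.028 (DESeq2) and -0.25 (epithelial scaling), Ddit3 at 0.082 (no filter), Phgdh at 0.13 (no filter), 0.19 (no shallow libraries) and 0.21 (block, no shallow libraries), and Psat1 at -0.0018 (the last setting). Leaving out each library gave ranges that crossed 0 over all libraries for Ddit3 (-0.10 to 0.15), Ddit4 (-0.049 to 0.23) and Atf4 (-0.19 to 0.045); in the lower-numbered ones for Nupr1 (-0.28 to 0.058, and -0.34 to 0.037 for the difference in log2(CPM + 1)), Ddit3 (-0.10 to 0.31) and Atf4 (-0.15 to 0.27); and in the higher-numbered ones for Ddit3 (-0.18 to 0.17), Asns (-0.11 to 0.12), Psat1 (-0.084 to 0.36) and Phgdh (-0.12 to 0.19). Trib3, Chac1 and Sesn2 were below the filter on low counts, and the parts of depth and of a low level in this were not tested.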
